A study of Mus musculus with 16 samples.

Results

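To determine how PARP inhibition alone altered H3K27ac in resting macrophages, the H3K27ac peak list of untreated bone marrow-derived macrophages (BMDMs; Control) was compared with that of BMDMs given PJ34. The comparison used 4 of the 16 samples of the series, 2 Control and 2 PJ34 ChIP samples out of 8 ChIP samples, and 2 of the 4 deposited peak lists. Both replicates of a condition stand behind 1 list, so the spread between replicates could not be measured and no p-value is given. A peak was called absent from the other list when no peak there overlapped it by at least 1 bp. Shared peaks were compared by their score percentile, which is the rank of a peak's score within its own list from 0 to 100, and by their width. The Control list held 43533 peaks and the PJ34 list 44090 peaks, which merged into 49205 regions, out of 55218 regions over all 4 lists.

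The cells were primary macrophages grown from the bone marrow of C57Bl6 mice, 8 to 12 weeks old, in medium with L-929 cell conditioned medium. Control cells were untreated, and PJ34 cells received PJ34 at 20 µM. The series also held cells given IFNγ at 100 ng/mL for 1 h without PJ34 and cells given IFNγ after PJ34, for which the PJ34 was added 1 h before the cytokine. The total time in PJ34 of the cells that received no IFNγ was not given in the sources used here. H3K27ac, the acetylation of lysine 27 on histone H3, marks active promoters and enhancers and is written mainly by the acetyltransferases p300 and CBP. PARP enzymes use NAD+ to attach ADP-ribose to proteins, among them histones and transcription factors, and PJ34 blocks the catalytic site of PARP-1 and related enzymes. Resting macrophages keep many inflammatory genes poised for NF-kB and AP-1, while lysosomal, lipid and phagocytic genes are active.

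A feature of the lists bears on all results that follow. At the sites where Control and PJ34 differed, the IFNγ and IFNγ+PJ34 lists, which share no sample with them, differed in the opposite direction more often than in the same one. The values are given after the comparison itself. With a single list per condition, a difference between libraries and an effect of PJ34 cannot be told apart, and the labels name no batch. The IFNγ lists carried added promoter peaks at 2 genes that IFNγ is known to induce. Peaks at Cxcl9, a chemokine, and Tgtp1, an interferon-induced GTPase, were found in the IFNγ list (percentiles 68.5 and 46.7) and in the IFNγ+PJ34 list (45.6 and 67.8) but in neither Control nor PJ34. Of 38 IFNγ-response genes, 36 had a promoter peak in Control and 34 in PJ34, so presence could show no gain at most of them. Read depth is not given in the lists. Macrophage identity was plain in both lists, since 20 of 20 macrophage markers had a promoter peak in each. Of the markers of other cells, 0 of 6 stromal genes had a promoter peak in either list, and 0 of 7 T cell genes in Control and 1 of 7 (Gata3) in PJ34. B cell genes had 1 of 6 in both lists, and neutrophil genes 2 of 8 in each list, with 1 gene in common. Erythroid genes had 1 of 6 in Control and 2 of 6 in PJ34, and dendritic cell genes 3 of 6 in Control and 2 of 6 in PJ34.

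The sites with the clearest differences are shown as 200 bp windows centred on the peak summit, on the + strand of GRCm38 (mm10). They comprise strong peaks found in a single list and shared peaks with large shifts in rank. Capitals mark matches, on either strand, to 10 short motifs that were searched.
Prdm1 distal, Control alone, chr10:44589030-44589229: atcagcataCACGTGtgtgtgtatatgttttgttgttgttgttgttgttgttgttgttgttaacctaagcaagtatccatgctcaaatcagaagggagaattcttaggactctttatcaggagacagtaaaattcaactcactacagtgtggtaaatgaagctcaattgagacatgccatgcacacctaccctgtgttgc
Cilp2 distal, PJ34 alone, chr8:69866516-69866715: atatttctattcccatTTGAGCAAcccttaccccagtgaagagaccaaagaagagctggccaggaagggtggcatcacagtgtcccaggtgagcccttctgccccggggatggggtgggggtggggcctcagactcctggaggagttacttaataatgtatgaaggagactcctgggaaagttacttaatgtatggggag
Aqp9 intron, PJ34 alone, chr9:71144818-71145017: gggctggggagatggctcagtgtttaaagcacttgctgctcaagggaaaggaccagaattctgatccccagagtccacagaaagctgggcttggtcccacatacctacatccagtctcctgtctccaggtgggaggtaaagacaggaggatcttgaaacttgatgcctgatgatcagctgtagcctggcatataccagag
Psma6 intron, higher in PJ34, chr12:55389412-55389611: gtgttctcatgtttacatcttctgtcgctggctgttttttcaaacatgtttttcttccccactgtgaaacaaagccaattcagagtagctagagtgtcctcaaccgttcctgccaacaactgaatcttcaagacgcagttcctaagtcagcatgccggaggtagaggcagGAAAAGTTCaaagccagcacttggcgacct
Fosb promoter, higher in PJ34, chr7:19310098-19310297: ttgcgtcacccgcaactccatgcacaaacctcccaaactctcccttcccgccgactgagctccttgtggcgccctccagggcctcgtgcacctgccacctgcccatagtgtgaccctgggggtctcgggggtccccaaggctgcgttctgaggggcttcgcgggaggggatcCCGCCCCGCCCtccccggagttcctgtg
Tbc1d9 distal, lower in PJ34, chr8:83055383-83055582: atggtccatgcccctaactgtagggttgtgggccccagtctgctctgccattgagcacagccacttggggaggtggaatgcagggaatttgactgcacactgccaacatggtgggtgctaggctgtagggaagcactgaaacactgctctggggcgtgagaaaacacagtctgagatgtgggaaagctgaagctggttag

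The capitals are the E-box CACGTG in the Prdm1 window and the spaced motif GAANNNTTC in the Psma6 window. In the Cilp2 window they are the C/EBP half-site pair TTGCNNAA (on the opposite strand). In the Fosb window they are 2 overlapping matches of the GC box GGGCGG. The Aqp9 and Tbc1d9 windows held none of the 10 motifs. Of all 200 bp summit windows of the Control list, 2.57% held the E-box, 4.38% the motif GAANNNTTC, 6.61% the C/EBP pair and 12.9% the GC box. A match describes letters in the window and was not read as a bound site.

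The 2 lists differed mainly among their weak peaks. Of the Control peaks, 10943 of 43533 (25.1%, exact 95% interval 24.7% to 25.5%) were absent from PJ34, while Control lacked 8590 of the 44090 PJ34 peaks (19.5%, 19.1% to 19.9%). These intervals, like the others given, reflect counting error alone and assume independent peaks, which neighbouring peaks are not. The median absent peak stood at percentile 19.9 in Control and 15.3 in PJ34. The lower-scoring 50% of each list held 91.6% of the absent Control peaks and 95.3% of the absent PJ34 peaks. In the top 25% of the lists, 11 Control peaks and 3 PJ34 peaks were absent from the other list. When each list was split by score into 10 bins, the lowest bin had 62.4% of its Control peaks and 54.9% of its PJ34 peaks absent, and the highest bin 0 of 4346 and 0 of 4402, which allows shares of up to 0.0848% and 0.0838% (upper exact bounds). Absent peaks were narrow, with a median width of 385 bp in Control and 340.5 bp in PJ34, against 1011 bp and 810 bp for shared peaks. Many lay beside a peak of the other list: 4120 absent Control peaks (37.6%) and 3947 absent PJ34 peaks (45.9%) had one within 1 kb.

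**Figure D1:**
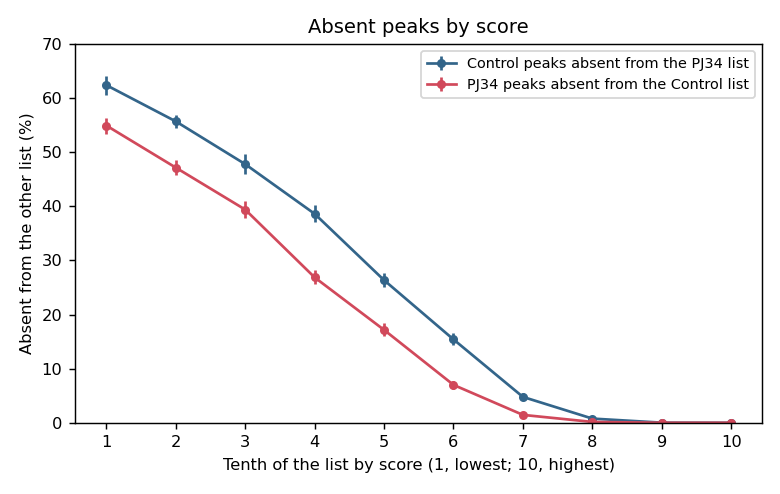
Share of peaks absent from the other list (y axis, %) in 10 bins of the list by score (x axis, lowest to highest), for Control (blue) and PJ34 (red), with bars showing exact 95% intervals. The share falls from 62.4% and 54.9% in the lowest bin to 0 in the highest, with the Control point above the PJ34 point in all but the highest bin.

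Promoters differed little between the lists, and most differences lay in introns and between genes. By summit, 650 absent Control peaks (5.94%) and 518 absent PJ34 peaks (6.03%) were within 1 kb of a protein-coding start site, against 34.4% and 32.8% of shared peaks. Most absent peaks scored low, and the gap was smaller among low-scoring peaks. In the lower-scoring 50% of the lists, promoters held 6.13% of absent and 12.6% of shared Control peaks. For PJ34 these shares were 6.01% and 12.1%. Introns held 51.4% and 50.5% of the absent peaks and intergenic sequence 38.9% and 40.4%. The median distance to a start site was 20.0 kb for absent Control peaks and 19.9 kb for absent PJ34 peaks, against 7.63 kb and 7.88 kb for shared ones. Outside promoters, windows at absent Control peaks had a median GC content of 46.5% and windows at absent PJ34 peaks 44.5%. The AP-1 site TGANTCA was in 5.64% and 6.31% of these windows, against 5.76% of all Control and 5.62% of all PJ34 windows outside promoters. The NF-kB site GGAANTTCC was in 0.204% and 0.372% of them, against 0.313% and 0.323% of all windows outside promoters in the same lists. In windows of 400 bp, a width tried after the data had been seen, it was in 0.554% (0.420% to 0.717%) at absent Control peaks and 1.1274% (0.909% to 1.38%) at absent PJ34 peaks, against 0.900% and 0.990% of all windows outside promoters. The GC box was in 2.71% of absent and 4.29% of shared Control windows of 200 bp outside promoters, and in 2.45% and 4.26% for PJ34.

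The strongest Control peaks absent from PJ34 lay in introns and at distal sites. One of them (chr10:44588272-44589419) lay 130 kb from Prdm1, which encodes the repressor Blimp-1, at percentile 76.8. Others were nearest to Dnmt3a, a DNA methyltransferase (25.7 kb, in an exon of Dtnb), Fos, an AP-1 subunit (5.44 kb), and Cebpa, a myeloid transcription factor (20.6 kb, percentile 75.4). A peak of 2937 bp nearest to Parp2, a PARP enzyme that responds to DNA breaks, lay 16.7 kb away in an exon of Tep1, at percentile 75.1. Another 6 of the top 12 were nearest to Rpl31, Cux1, Mdh1, Itgb5, A630001G21Rik and Lrrc17, at percentiles from 74.8 to 76.1. All 12 overlapped a peak of the IFNγ+PJ34 list, and 4, those of Cux1, Mdh1 and A630001G21Rik among them, overlapped an IFNγ peak.

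The strongest PJ34 peaks absent from Control were weaker in rank. The top one (chr8:69866301-69866884) lay in an intron of Pbx4, 21.1 kb from Cilp2, at percentile 77.6 and a fold enrichment of 14.7. The next was in an intron of Aqp9, an aquaporin that also carries glycerol (chr9:71144655-71145877, percentile 77.1), and the one after it in an intron of Atxn1, 116 kb from Gmpr (percentile 76.9). Further peaks were nearest to Jak2, a kinase of the IFNγ receptor (71.0 kb, percentile 72.4), and Tnfsf4, which encodes OX40 ligand (18.7 kb, 71.2). Others of the 12 were nearest to Hs1bp3, Anxa5, Car13, Atp2b1 and Asic2, between percentiles 67.4 and 72.0. All 12 overlapped a peak of the IFNγ list, and 5 (Aqp9, Jak2, Tnfsf4, Car13 and Asic2) overlapped an IFNγ+PJ34 peak.

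At shared peaks, rank was mostly kept and a minority of sites outside promoters moved far. Matching each peak to its best partner gave 30000 pairs, with a Spearman correlation of 0.854 between the percentiles (across peaks, as a description). The median shift from Control to PJ34 was 0.31 points (0.16 to 0.35), and 59.1% of pairs shifted by 10 points or less. PJ34 ranked at least 20 points higher at 2735 pairs (9.12%) and at least 20 points lower at 3252 pairs (10.8%). At promoters the shares were 2.89% and 2.94% of 10812 pairs, in introns 12.8% and 16.5% of 9776, and between genes 12.5% and 13.9% of 8762. Peaks were narrower in PJ34, with a median width ratio of 0.935 (0.931 to 0.938). At least 2 times wider in PJ34 were 1452 pairs (4.84%), and at least 2 times narrower were 3934 (13.1%). Width and rank moved together: pairs higher in PJ34 had median widths of 481 bp in Control and 708 bp in PJ34, and pairs lower in PJ34 had 957.5 bp and 429.5 bp. Some Control peaks were covered by several PJ34 peaks: 4758 shared Control peaks (14.6%) overlapped at least 2 PJ34 peaks, while 2531 shared PJ34 peaks (7.13%) overlapped at least 2 Control peaks.

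**Figure D2:**
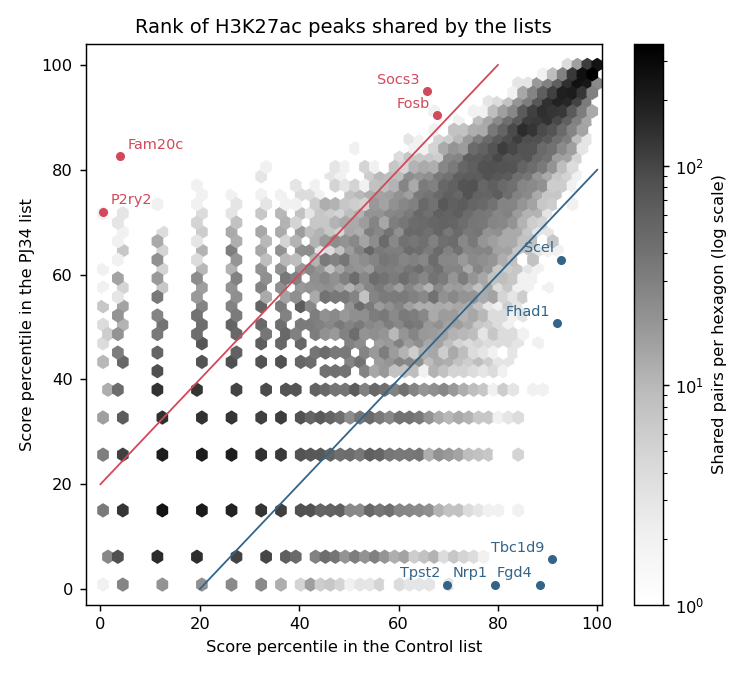
Score percentile of 30000 shared pairs in the Control list (x axis) and the PJ34 list (y axis), with grey shade giving the number of pairs per hexagon on a log scale, lines marking a shift of 20 points and coloured points marking named sites. Most pairs lie along the diagonal, 2735 lie above the upper line and 3252 below the lower one, and the empty bands at low percentiles are tied scores.

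The largest gains were at sites outside promoters. So large a rise can start only from a low Control percentile, so their low starting rank follows from the selection. A site 16.0 kb from P2ry2, a receptor for extracellular nucleotides, stood at percentile 0.529 in Control and 72.0 in PJ34, and a second P2ry2 site, 45.1 kb away, at 11.5 and 79.6. A site 57.5 kb from Cd44, the hyaluronan receptor, stood at 3.96 and 72.4, and one 221 kb from Prdm1 at 11.5 and 78.1. A site 59.3 kb from Fam20c, a kinase of secreted proteins, stood at 3.96 and 82.6, although another Control peak under the same PJ34 peak reached 57.05. The Actn4 intron site (11.5 and 84.3) likewise had a second Control peak at 81.2, so its shift came from how the region was divided into peaks. Kcng3, Gm266, Phactr2, Gm5269, Cd5 and Skil made up the rest, with shifts from 66.3 to 71.8 points. At Kcng3 a second Control peak under the same PJ34 peak reached 63.96, against 75.8 in PJ34, and at Skil one reached 32.5.

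The largest losses, for the same reason, could start only from a high Control percentile. An intron of Fgd4, an exchange factor for the GTPase Cdc42, stood at percentile 88.5 in Control and 0.856 in PJ34, with fold enrichments of 27.3 and 1.89. In Rnf150, 110 kb from Tbc1d9, a site stood at 90.8 and 5.78 (the best PJ34 peak over it reached 46.0), and a second site 83.9 kb from Tbc1d9 at 76.8 and 5.78. A site 281 kb from Nrp1, a co-receptor for semaphorins and VEGF, stood at 79.4 and 0.856 (best PJ34 peak 50.8), and one 345 kb from Irs2, an insulin receptor substrate, at 71.5 and 0.856. The Tpst2 promoter was the 1 promoter among the 12, at 69.8 and 0.856. Arhgap39, Magi2, Marf1, Gmpr, Kdm7a and Farsb completed the list, with Control percentiles from 69.8 to 84.8. In the Magi2 case a second PJ34 peak under the Control peak stood at 78.4.

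Among pairs in the higher-scoring 50% of both lists, the greatest gains in width were near Gpr4, a proton-sensing receptor (406 bp in Control and 2893 bp in PJ34), Wdfy3 (684 and 4834 bp), Edn1, which encodes endothelin-1 (563 and 3807 bp), Anxa5 (545 and 2798 bp), Adora2a, an adenosine receptor (532 and 2375 bp), and Slc39a14, a zinc importer (1259 and 5552 bp). The greatest losses were near Fam187b (4075 and 377 bp), Gnpda1, Spata32, Gm10260, Tbc1d22a and Swap70 (5207 and 689 bp). Several of these regions were divided into peaks differently in the lists. The PJ34 peaks near Wdfy3, Anxa5 and Slc39a14 overlapped 3, 4 and 4 Control peaks. The Control peaks near Fam187b, Gm10260, Tbc1d22a and Swap70 overlapped 2, 2, 3 and 5 PJ34 peaks. At Gpr4, Edn1, Adora2a, Gnpda1 and Spata32 each peak overlapped a single peak of the other list.

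Shifts of 20 points were rare at strong sites. Among pairs whose mean percentile was 80 or more, 3 of 8297 were at least 20 points higher in PJ34 and 7 lower. Percentiles have an upper limit, so pairs near the top of both lists could not shift by more than 20 points. These 2 counts are therefore low partly by construction. Selecting pairs by the top 10% of either list leaves a large shift possible, and there 5 of 5099 were at least 20 points higher and 24 lower. Of the pairs that reached the top 10% of either list, the largest gain was 19.5 kb from Socs3, a feedback inhibitor of cytokine signalling (65.8 in Control and 94.9 in PJ34). A second Control peak, at 88.5, lay under the summit of that PJ34 peak, so the shift there depends on which Control peak is matched. The next was an intron of Psma6, a proteasome subunit (66.3 and 90.6), with no second peak. The Fosb promoter, of an AP-1 subunit, stood at 67.7 and 90.4 (74.0 for the highest Control peak at the promoter), and a site 62.7 kb from Tnfaip3, which encodes the NF-kB inhibitor A20, at 75.1 and 90.8. Among losses without a second strong peak, an intron of Fhad1 stood at 91.9 and 50.8, and a site 35.6 kb from Scel at 92.7 and 62.8. For the promoter of Mgat1, an enzyme of N-glycan synthesis, the matched peaks stood at 96.5 and 54.8, while another PJ34 peak there reached 92.4. These sites were picked after their values were seen.

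Around genes of NF-kB signalling and inflammation, PJ34 carried many peaks that Control lacked and few were missing. Within 50 kb of the start sites of 28 such genes, Control lacked 165 of 393 PJ34 peaks (42.0%, 37.1% to 47.0%), whereas PJ34 lacked 24 of 276 Control peaks (8.70%, 5.65% to 12.7%). Around all protein-coding genes the shares were 17.6% (6274 of 35726) and 23.2% (8151 of 35183). The share of absent peaks was larger on the PJ34 side at 25 of the 28 genes, against 24.3% of all genes with peaks. Of 195 shared pairs in these windows, 48 (24.6%) were at least 20 points higher in PJ34 and 4 lower, against 8.09% and 10.1% around all genes, and the median shift was 5.61 points. The added peaks were mostly weak: in the higher-scoring 50% of the lists, 7 of 166 PJ34 peaks (4.22%) and 0 of 125 Control peaks were absent from the other list. Around all genes these shares were 1.43% and 3.56%. Because windows of neighbouring genes overlap, the Ccl2, Ccl7 and Ccl12 windows were also left out, which gave 38.7% and 9.02%. When a peak within 1 kb counted as shared, the shares were 25.7% and 3.62%, against 9.14% and 13.9% around all genes. No test of the list against other genes was made.

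The absent PJ34 peaks were spread over ligands, regulators and the inflammasome. Around Il10, which encodes an anti-inflammatory cytokine, 14 of 24 PJ34 peaks were absent from Control. The count was 11 of 17 at Nfkb1, the p105 and p50 subunit of NF-kB, 12 of 19 at Bcl3, its nuclear cofactor, and 9 of 22 at Tnfaip3. It was 10 of 25 at Il1b, 9 of 15 at Il12b, 3 of 5 at Il6, 8 of 17 at Cxcl2, a neutrophil chemokine, and 8 of 19 at Nlrp3, the inflammasome sensor. At Tnf it was 2 of 21, below the 3 of 21 on the Control side, and at Ccl3 and Ccl5 it was 4 of 27 and 2 of 12 against 6 of 20 and 3 of 14. At promoters, Ccl7, a monocyte chemokine, stood at percentile 19.9 in Control and 56.3 in PJ34 and passed 20 points. Cxcl2 stood at 74.5 and 93.1, Ccl12 at 68.2 and 85.3, Il6 at 45.1 and 60.9 and Cd83 at 78.1 and 87.5, all under 20 points. Nfkbia, which encodes the NF-kB inhibitor IkBα, stood at 98.6 and 96.4 and was 1 of 3 genes of the list that ranked lower. Il12b, Ccl2 and Csf3 had a promoter peak in PJ34 alone (25.3, 48.6 and 25.3).

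**Figure D3:**
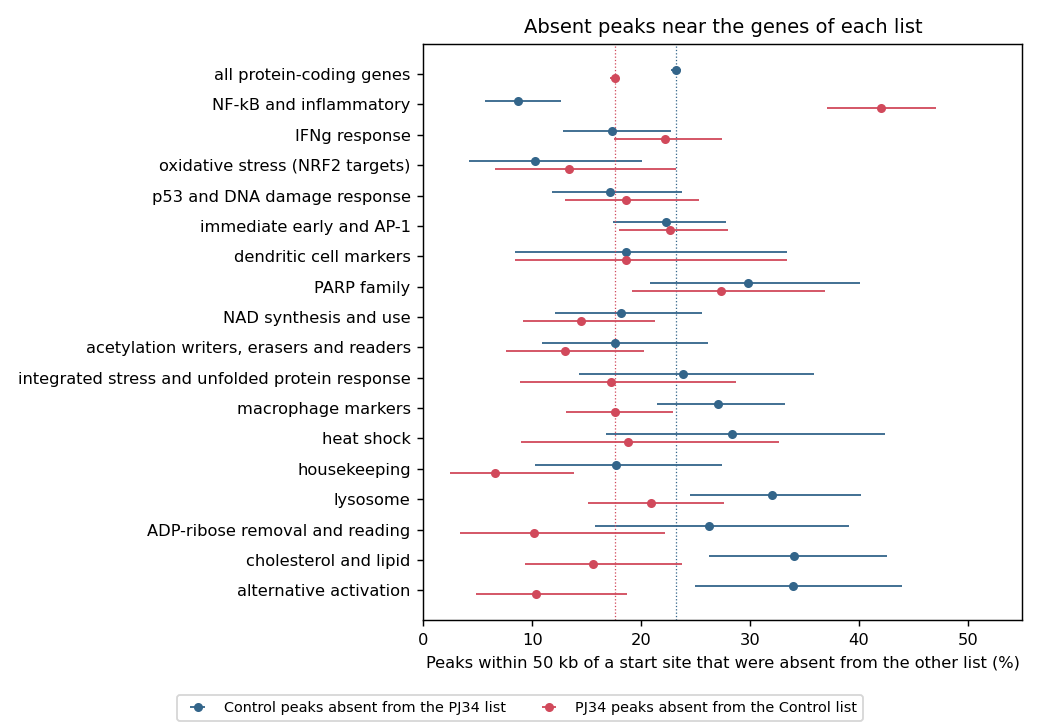
Share of peaks within 50 kb of the start sites of each gene list that were absent from the other list (x axis, %), for Control peaks (blue) and PJ34 peaks (red), with exact 95% intervals and dotted lines at the values of all protein-coding genes. The NF-kB and inflammatory list has the highest red point (42.0%) and the lowest blue point (8.70%), and lists with few peaks are not drawn.

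Around genes of alternative activation, Control carried more peaks that the other list lacked. Within 50 kb of 13 genes of alternative (IL-4-type) activation, 35 of 103 Control peaks (34.0%) were absent from PJ34 and 9 of 87 PJ34 peaks (10.3%) from Control. In the higher-scoring 50% of the Control list, 6 of 48 (12.5%) were absent from PJ34, against 3.56% around all genes. Of their 66 shared pairs, 5 (7.58%) were at least 20 points higher in PJ34 and 17 (25.8%) lower, with a median shift of -7.53 points. Around all genes 8.09% were higher and 10.1% lower. Mrc1, the mannose receptor, had 11 of 21 Control peaks absent, and Mgl2, a lectin, 5 of 7. All 7 genes of the list with promoter peaks ranked lower in PJ34, against 4450 of 10800 genes in all, with a median shift of -8.16 points. Of the 7, 1 passed 20 points: Clec10a, a lectin, at 63.3 in Control and 38.2 in PJ34. Mrc1 stood at 78.9 and 63.8, and Arg1, which encodes arginase-1, at 50.7 and 42.5.

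For 14 genes of cholesterol and lipid metabolism, 47 of 138 Control peaks (34.1%) were absent from PJ34 and 17 of 109 PJ34 peaks (15.6%) from Control. Around all genes the shares were 23.2% and 17.6%. In the higher-scoring 50% of the Control list this was 2 of 59 (3.39%), against 3.56% around all genes. Lpl, which encodes lipoprotein lipase, accounted for 16 of the 47, and Plin2, a lipid droplet protein, for 7. The promoter of Scd2, a fatty acid desaturase, stood at 72.5 and 48.6, and that of Lpl at 93.7 and 83.5. For 17 lysosomal genes the shares were 32.0% (47 of 147) and 20.9% (37 of 177), both above those of all genes. The interval of the PJ34 share (15.2% to 27.6%) included that of all genes. In the higher-scoring 50% of the Control list 1 of 70 (1.43%) was absent from PJ34. Ctsl, which encodes cathepsin L, had 10 of 14 Control peaks absent, while Ctsd, which encodes cathepsin D, had 12 of 16 PJ34 peaks absent from Control. Atp6v0d2, a subunit of the vacuolar proton pump, had a promoter at 42.8 and 15.3, and Acp5, tartrate-resistant acid phosphatase, at 26.9 and 48.6, so the list held a call in each direction.

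Macrophage markers kept their promoter peaks at lower rank. The promoters of 17 of 20 markers ranked lower in PJ34, with a median shift of -5.41 points, while 4450 of 10800 genes ranked lower overall and their median shift was 0.75. Mertk, a receptor for apoptotic cells, stood at 80.8 in Control and 54.8 in PJ34 and was the 1 marker past 20 points. C1qa, a complement subunit, stood at 99.5 and 80.1, Trem2, a lipid receptor, at 95.7 and 80.1, and Csf1r, the receptor for CSF-1, at 99.7 and 97.2. Runx1 (96.2 and 98.7), Cebpb (97.5 and 98.6) and Cd68 (99.1 and 99.8) ranked higher. In the windows around the markers, 63 of 233 Control peaks (27.04%) and 44 of 250 PJ34 peaks (17.6%) were absent from the other list. These shares were near those around all genes, 23.2% and 17.6%.

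At promoters, the genes of the inhibited enzyme family differed little in rank between the lists. All 16 PARP genes had a promoter peak in both lists, 0 passed 20 points, and the median shift was 0.32. Over all genes with promoter peaks in both lists, 1.63% ranked at least 20 points higher in PJ34 and 1.82% lower. In a short list 0 calls is therefore near the general share. Parp1, the main target of PJ34, stood at 79.8 in Control and 68.0 in PJ34, Parp2 at 88.4 and 91.1, Parp3 at 81.6 and 90.5 and Parp14 at 99.7 and 99.3. In their windows 28 of 94 Control peaks (29.8%, 20.8% to 40.1%) and 29 of 106 PJ34 peaks (27.4%, 19.1% to 36.9%) were absent. Around all genes the shares were 23.2% and 17.6%. Around Tiparp, a PARP that is a target of the aryl hydrocarbon receptor, 10 of 13 PJ34 peaks were absent from Control. Of 12 genes for removing or reading ADP-ribose, 11 had a promoter peak in both lists and 0 passed 20 points. Parg, which encodes the main ADP-ribose glycohydrolase, stood at 84.4 and 87.5, and Macrod2 had a weak peak in Control alone (26.9). Of 14 genes of NAD metabolism with peaks in both, 1 passed 20 points, Naprt, an enzyme of NAD synthesis from nicotinic acid (47.2 and 5.78). Of 16 acetylation genes in both lists, 0 passed 20 points, and Hdac9 had a peak in Control alone.

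For 38 IFNγ-response genes, 42 of 242 Control peaks (17.4%) and 64 of 289 PJ34 peaks (22.1%) were absent, and of 34 promoters in both lists 1 passed 20 points, Nos2, which encodes inducible nitric oxide synthase (32.5 and 66.1). Gbp4 (19.9) and Iigp1 (11.5), both interferon-induced GTPases, had promoter peaks in Control alone. Irf1, an interferon-induced transcription factor, stood at 98.3 and 91.3. For immediate early genes the shares were 22.3% and 22.6%, and Fosl1, an AP-1 subunit, passed 20 points (26.9 and 54.8). The shares were 17.2% and 18.6% for genes of the p53 response, 10.3% and 13.3% for oxidative stress genes, 28.3% and 18.8% for heat shock genes and 17.6% and 6.59% for housekeeping genes. Oxidative stress and housekeeping genes were thus below all genes (23.2% and 17.6%) on both sides. The general share lay within the interval for oxidative stress PJ34 peaks (6.58% to 23.2%) and for housekeeping Control peaks (10.2% to 27.4%).

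Over all 21840 protein-coding genes, promoter peaks were rarely gained or lost. A promoter peak was present in both lists for 10800 genes, in Control alone for 236 (1.08%) and in PJ34 alone for 218 (0.998%). Of the 10800, 176 (1.63%) ranked at least 20 points higher in PJ34 and 197 (1.82%) lower. Of the 324 genes of the 23 lists, 265 had peaks in both, of which 6 ranked at least 20 points higher (Nos2, Ccl7, Fosl1, Trib3, Acp5 and Zbtb46) and 5 lower (Mertk, Naprt, Clec10a, Scd2 and Atp6v0d2). Ranked by fold enrichment, these counts were 4 and 7, so the balance between the directions depended on the ranking. Among strong promoters outside the lists, picked after their values were seen, Ltb, which encodes lymphotoxin beta, stood at 63.3 and 98.0 and Ccr9, a chemokine receptor, at 49.1 and 92.7. Lower in PJ34 were Ly86, a partner of a TLR4-like receptor (86.1 and 57.6), Rgs2, a regulator of G proteins (90.8 and 65.3), and Pde4a, a cAMP phosphodiesterase (98.4 and 68.0).

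Absent peaks were clustered at some loci. Around Ccl7, 27 of 37 PJ34 peaks were absent from Control, and the peaks covered 8.75 kb in Control and 30.6 kb in PJ34. Within the window of Psma6, 20 of 38 PJ34 peaks were absent, with 21.1 kb covered in Control and 49.1 kb in PJ34, and around Aqp9 17 of 21, with 1.75 kb and 14.8 kb. Susd1 (20 of 35), Lpp, a LIM domain protein (16 of 30), and St7 (16 of 33) followed. In the Control direction, Lpl led with 16 of 26 peaks absent from PJ34, and its peaks covered 29.5 kb in Control and 17.5 kb in PJ34. Tep1, next to Parp2, had 13 of 20 absent (25.2 and 9.37 kb). Tmem154 (11 of 13), Pwwp2b (11 of 15) and Nat9 (11 of 16) came next.

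**Figure D4:**
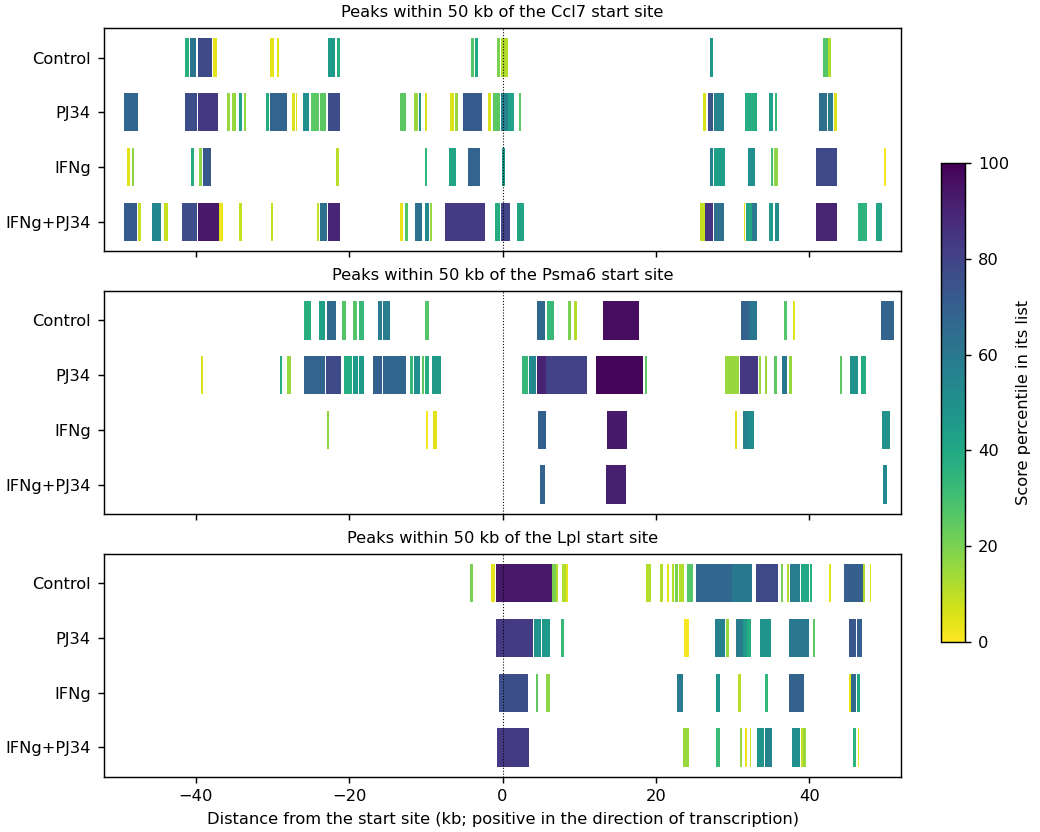
Peaks within 50 kb of a start site of Ccl7, Psma6 and Lpl in each of the 4 lists, by distance from the start site (x axis, kb), with colour giving the score percentile within the list. Ccl7 has 17 Control and 37 PJ34 peaks, Psma6 has 19 and 31 in the window drawn, and Lpl has 26 and 15.

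The IFNγ pair of lists gave the same comparison in other samples, with and without PJ34 in the presence of IFNγ. Of the 30000 pairs, 21589 were found in both of those lists, and 48.8% of them ranked higher in IFNγ+PJ34 than in IFNγ. Of the 1059 such pairs that were at least 20 points higher in PJ34 than in Control, 38.9% (36.0% to 41.9%) ranked higher and 61.1% lower in IFNγ+PJ34, with a median of -6.82 points. Of the 1810 that were at least 20 points lower in PJ34, 74.2% (72.1% to 76.2%) ranked higher in IFNγ+PJ34, with a median of 15.8 points. Across the 21589 pairs, the shifts had a Pearson correlation of -0.32 and a Spearman correlation of -0.32, given as a description, since peaks of a list share its libraries. The opposite direction held at promoters, in introns and between genes: 66.7%, 73.3% and 76.9% of the PJ34-lower pairs there ranked higher in IFNγ+PJ34. It also held at strong sites, but in the lowest band of mean percentile neither class stood clear of all pairs of the band. Of pairs with a mean percentile of 80 or more that were at least 10 points lower in PJ34, 79.8% of 242 ranked higher in IFNγ+PJ34, and of those at least 10 points higher, 23.9% of 117 did. Of pairs at least 10 points higher in PJ34 with a mean percentile of 0 to 20, 55.9% of 118 ranked higher in IFNγ+PJ34. With a mean of 20 to 40 it was 48.4% of 638. For pairs at least 10 points lower in PJ34, the shares in these bands were 52.5% of 61 (39.3% to 65.4%) and 67.9% of 781. All pairs of these bands gave 56.0% and 58.1%, and all pairs with a mean of 80 or more 40.3%.

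**Figure D5:**
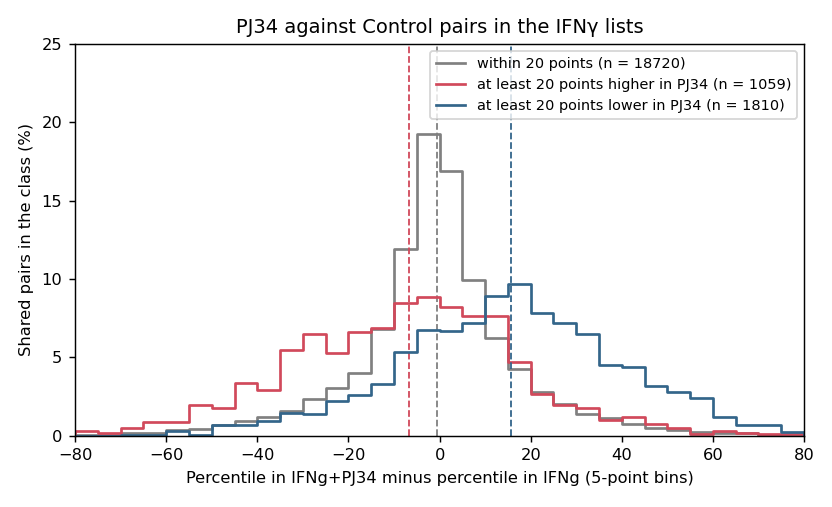
Difference in percentile between IFNγ+PJ34 and IFNγ (x axis, points) for shared Control and PJ34 pairs, as the share of pairs in each class (y axis, %), for pairs at least 20 points higher in PJ34, at least 20 points lower in PJ34, and within 20 points. The PJ34-higher class has its median at -6.82 and the PJ34-lower class at 15.8.

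Presence gave the same picture. Absent Control peaks were found in the IFNγ list in 17.8% and in the IFNγ+PJ34 list in 33.7% of cases, and among the 919 in the higher-scoring 50% in 30.03% and 67.9%. Absent PJ34 peaks were found in IFNγ in 34.6% and in IFNγ+PJ34 in 21.3%, and among the 400 in the higher-scoring 50% in 73.8% and 28.8%. The NF-kB windows followed it: 30.5% of IFNγ peaks there were absent from IFNγ+PJ34 and 19.9% of IFNγ+PJ34 peaks from IFNγ, against 21.8% and 24.1% around all genes. Around alternative activation genes the shares were 15.2% and 38.7%, and around lysosomal genes 15.8% and 34.2%. Macrophage marker promoters had a median shift of 2.90 points from IFNγ to IFNγ+PJ34. Some loci went the same way as without IFNγ. The Ccl7 locus had 12.6 kb covered in IFNγ and 33.5 kb in IFNγ+PJ34, Susd1 had 13.8 and 16.6 kb, and St7 24.0 and 30.3 kb. The Psma6 locus, with 8.29 and 4.00 kb, went the other way, as did Aqp9 (13.8 and 11.2 kb) and Lpp (50.1 and 35.2 kb). Windows of IFNγ-response genes also kept their direction, with 16.5% of IFNγ peaks and 26.9% of IFNγ+PJ34 peaks absent. Differences between the IFNγ pair were not tested against those between Control and PJ34, and the part played by the libraries was not tested.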

How the data were processed

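H3K27ac ChIP-seq (antibody ab4729) was done by the authors on 2 biological replicates of each condition, with matched input DNA. The authors aligned reads to mm10 with Bowtie, called relaxed peaks per replicate against input with MACS2 at p = 0.01, and kept peaks overlapping in both replicates. Each deposited list gives a score (whole numbers from 10 to 1000), a fold enrichment (a ratio) and −log10 p and q-values. No read counts are in the lists, so depth is unknown. The input samples have no list of their own and were not analysed here.

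Percentiles are average ranks of the score within a list, and 20 points or 2 times the width made a call. Pairs are mutual best overlaps. Genes came from GENCODE M21 (basic set, protein-coding, GRCm38, the build of the peaks), and a promoter peak of a gene overlapped 1 kb either side of a start site. Gene windows reached 50 kb from start sites, each peak counted once per list. Shares have exact Clopper-Pearson 95% intervals and medians exact order-statistic intervals. Named genes were the nearest genes of the 12 highest-scoring absent peaks in each direction, of the 12 largest rises and 12 largest falls in percentile, of the 6 largest gains and 6 losses of width, the 6 genes with the most absent peaks in each direction, and genes of 23 lists. Some named items are not reported here. The members, lists and loci were chosen with earlier results of these data known. Python 3.11.15, numpy 2.4.6, pandas 2.3.3, scipy 1.17.1, pysam 0.24.0 and matplotlib 3.10.9 were used, and the functions were tested on simulated data.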

Additional observations from a re-analysis of the deposited data

Results flagged for a closer look

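Several differences ran in opposite directions in the pair of lists without IFNγ and the pair with it. These were noticed after the data had been seen, and the difference between the pairs was not tested, since each condition has 1 list. Of the pairs at least 20 points higher in PJ34 than in Control, 61.1% ranked lower in IFNγ+PJ34 than in IFNγ, and of those at least 20 points lower, 74.2% ranked higher.

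Single promoters showed it as well. From IFNγ to IFNγ+PJ34 the percentile of Mertk moved by 46.81 points, that of Atp6v0d2 by 35.07, that of Clec10a by 31.95 and that of Mrc1 by 25.28, while all 4 ranked lower in PJ34 than in Control. Cxcl2 moved by -64.5 points and Fosb by -27.37, while both ranked higher in PJ34 than in Control.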

How the results depend on the processing

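Of the 94 alternative settings, 42 left the value close to the reported one and 52 moved it. A reversal was defined only for the width ratio and for the shares of called pairs moving the same way with IFNγ. Among those settings, except where 20 points were required with IFNγ, 0 reversed the result. For all other results a reversal could not be called, so its absence says nothing about them. No paired analysis was possible because the replicates of a condition were merged into 1 list, which also meant that neither replicate could be dropped. Presence depended most on the settings. The shares of Control and PJ34 peaks absent from the other list were 32.4% and 23.5% with an overlap of 50% of the peak, 15.7% and 10.5% when a peak within 1 kb counted as shared, 16.5% and 13.4% for the higher-scoring 50% of both lists, and 4.22% and 1.80% with the queried list alone so restricted. With equal list sizes the PJ34 share was 19.05%. The promoter shares of absent peaks were 4.05% and 5.51% under the 1 kb rule, 8.73% and 12.7% for the higher-scoring 50% of both lists, 3.92% for Control alone so restricted, 4.37% and 4.04% within 500 bp of a start site, and 6.88% and 6.82% by any overlap. Pairs 20 points higher and lower in PJ34 made up 10.6% and 12.0% ranked by fold enrichment, 9.76% and 13.04% by width, 9.72% and 10.5% among pairs with a single overlap, and 3.98% and 5.26% at 30 points. The median width ratio was 0.956 for single overlaps, 0.953 and 0.887 in the higher- and lower-scoring 50% of both lists, and 0.951 over merged regions. PJ34-higher pairs also higher with IFNγ were 10.7% when 20 points were required there and 42.3% by fold enrichment, and PJ34-lower pairs also lower were 7.79%, 29.6% and, at 30 points, 22.0%. Settings added after the data had been seen gave 10.3% lower pairs by the best overlapping peak, and 2 higher and 1 lower gene of the lists at 30 points, against 4 and 7 ranked by fold enrichment. The lists give no depth, so a weak site missing from a list cannot be told from one below its detection limit.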
